A study of Danio rerio with 8 samples.

Results

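Cells sorted for EGFP from Tg(fli1a:EGFP) zebrafish were set against whole embryos of the same transgenic line, to describe which tissue programmes a fli1a:EGFP sort enriches and which it loses. The sorted cells, chosen by their labels, are called sorted run 2 here, after the second sequencing run of the paper. No label names a separate sort. They are 2 of the 6 RNA samples of the series, sequenced as 4 of its 8 libraries. Sample A_2 was isolated with the RNAqueous micro kit and sample Q_2 with the RNeasy plus micro kit, each from 20000 sorted cells at a recorded age of 3 days. Each RNA was sequenced as a pair of technical libraries (a and b), and their counts were summed. The whole embryos were 2 RNA samples, A_unsorted (RNAqueous) and Q_unsorted (RNeasy), each from 1 embryo at a recorded age of 5 days. All samples carried the transgene, in which the fli1a promoter drives EGFP. Only the sorted cells passed through trypsin dissociation and flow cytometry, they came from 1 shared pool of larvae, and their cDNA received more amplification cycles. The 2 sorted samples were thus not from separate pools, and the labels do not state separate clutches for the embryos. The p-values therefore measure only the spread between these samples, which includes the kit. Cell sorting, recorded age, dissociation and amplification differed together between the groups, and their parts in any difference cannot be told apart. Sorted run 1, the sorted cells of the paper's first sequencing run, is given for comparison only. By the paper, those cells came from the same pool of larvae as run 2, so they add no separate pool. Their cDNA received as many amplification cycles as that of the embryos, but they were sequenced in another run.

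The zebrafish gene fli1a encodes an ETS family transcription factor of the vascular and blood lineages, and its promoter is a standard driver for imaging vessels. The same promoter is also active in neural crest cells of the pharyngeal arches and in other mesenchyme, the precursors of jaw cartilage, bone and connective tissue. Endothelium lines vessels, chondrocytes secrete a matrix of type II, IX and XI collagens with aggrecan and matrilins, and fibroblasts secrete fibrillar type I and V collagens.

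Reads on genes numbered 29273913 in A_2 and 33754546 in Q_2, against 16673800 in A_unsorted and 19537939 in Q_unsorted. Levels are given as CPM, counts per 1000000 reads after scaling with TMM (trimmed mean of M values) factors, a scale on which 3 counts came to 0.0943 on average for a sorted sample and 0.169 for a whole embryo. Over the 21377 genes tested with edgeR's quasi-likelihood test, 23.5% were called higher in sorted cells and 28.2% lower (5016 and 6029 genes, Benjamini-Hochberg adjusted p under 0.05). The median absolute log2 fold change between the groups was 1.07, while the median absolute log2 ratio was 0.30 between the 2 sorted samples and 0.36 between the 2 whole embryos. Called genes over 32-fold higher numbered 106 and those over 32-fold lower 605. Without A_2 the counts fell to 2205 higher and 3367 lower genes.

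The tissue programmes were read from 36 lists of known marker genes, 1001 Ensembl genes in all. Of these, 347 were higher in sorted cells, 422 were lower, 189 were not called and 43 did not pass the filter on low counts. The 769 called members had non-overlapping sample values and the same direction with both kits. Lack of overlap was common with 2 samples a group. Of the 21377 tested genes, 8213 had both sorted samples above both embryos and 8315 had both below. In the lists, endothelial, cartilage, bone, connective tissue, leukocyte, thrombocyte and cell cycle genes were higher more often than the 23.5% over all genes, and muscle, neural, eye, liver, gut, pancreas, epidermis and melanophore genes were lower more often than the 28.2% over all genes. The lists and their members were chosen with earlier results of these data known. These counts therefore describe the lists and are not an independent test of them. Leaving out A_2 reduced the calls in many lists, among them the endothelial, mesenchymal matrix, signalling and neuronal lists. The median log2 fold changes of these lists were then 1.51, 1.73, 1.765 and -2.225. In bulk RNA, fewer cells of a type and less RNA per cell cannot be told apart. Values for a gene are given for the RNAqueous and then the RNeasy sample of each group.

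**Figure D1:**
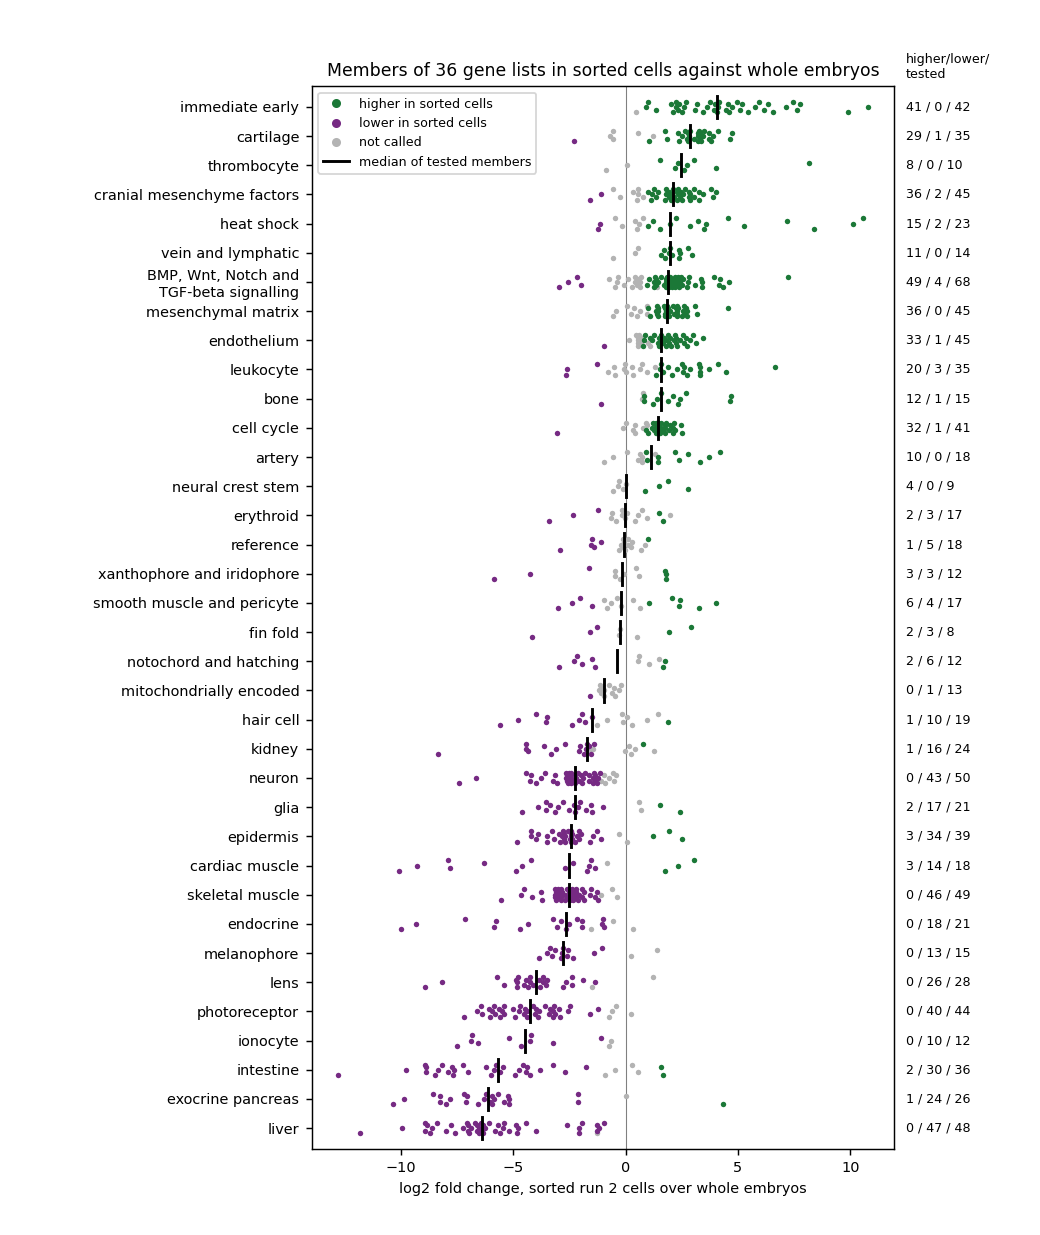
Each point is a tested member of the gene list named on the vertical axis, at its log2 fold change of sorted run 2 cells over whole embryos (horizontal axis). Green points were higher in sorted cells, purple points lower and grey points not called, black bars are medians, and the numbers at the right are higher, lower and tested members: the immediate early list has the highest median (4.07) and the liver list the lowest (-6.38).

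Endothelial genes were higher in sorted cells, led by FLI1 itself. Of 45 endothelial genes tested, 33 were higher and 1 was lower, with a median log2 fold change of 1.59. FLI1 (ENSDARG00000054632), which RefSeq also calls fli1a, is the gene whose promoter drove the sorting marker, so its level checks the labels. It had 319 and 292 CPM in sorted cells, against 28.7 and 27.3 CPM in whole embryos. Both sorted samples lay far above both embryos, 10.9-fold higher (log2 fold change 3.45 ± 0.33 (SE), adjusted p = 5.30e-06, quasi-likelihood test of edgeR, Benjamini-Hochberg adjusted). The technical libraries of the sorted RNA gave 321 and 315 CPM for A_2 and 271 and 309 CPM for Q_2. The related gene fli1rs had 23.6 and 22 CPM in sorted cells, against 3.53 and 6.31 CPM in whole embryos, and was 4.64-fold higher.

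Surface and secreted markers of vessels followed. The sialomucin gene cd34 had 265 and 221 CPM in sorted cells, against 37 and 43.7 CPM in whole embryos, and EGFL7, which encodes a protein that endothelial cells secrete into their matrix, had 70.7 and 80.4 CPM in sorted cells, against 10.6 and 10.3 CPM in whole embryos. The groups did not overlap for either gene, which were 6.03-fold higher and 7.22-fold higher. The transcription factor gene sox18 had 43.9 and 42.2 CPM in sorted cells, against 4.88 and 5.01 CPM in whole embryos. It was 8.7-fold higher, with the 2 sorted samples close to each other. TIE1, an endothelial receptor tyrosine kinase, differed more within the sorted group, with 57.2 and 26.4 CPM in sorted cells, against 8.74 and 6.76 CPM in whole embryos, and was 5.39-fold higher. The VEGF receptor gene kdrl had 52.7 and 30.6 CPM in sorted cells, against 17 and 13.5 CPM in whole embryos, a smaller difference (2.73-fold higher, adjusted p = 0.00308 in edgeR's quasi-likelihood test) that was no longer called without A_2.

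Another 11 endothelial genes were not called, among them robo4, with 15.2 and 11.6 CPM in sorted cells, against 12.1 and 12.05 CPM in whole embryos. Among the endothelial genes called higher, the cadherin gene of endothelial junctions, cdh5, was nearest to the threshold. It had 24 and 22.1 CPM in sorted cells, against 14.6 and 12.4 CPM in whole embryos, which edgeR's quasi-likelihood test gave an adjusted p of 0.0475 (log2 fold change 0.77 ± 0.30 (SE)). The samples did not overlap, but the call was lost without any 1 of the 4 samples, with log2 fold changes of 0.67 to 0.89. The only endothelial list member called lower was TAL1, a regulator of blood and vessel precursors, with 14.3 and 21.2 CPM in sorted cells, against 35.2 and 34.8 CPM in whole embryos, a call lost without A_2 and with sorted run 1 added. Endothelial list members together held 0.206% and 0.187% of the reads on genes in sorted cells, against 0.0645% and 0.0531% in whole embryos. In sorted run 1, which was not used in these tests, they held 0.173% and 0.185%.

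Arterial and venous genes were both among the genes higher in sorted cells. Of 18 arterial list genes tested 10 were higher and none lower in edgeR's test (also 0 at an unadjusted p under 0.05 and in DESeq2). Of 14 venous and lymphatic genes 11 were higher and none lower in edgeR's test (also 0 at an unadjusted p under 0.05 and in DESeq2). HEY1, a Notch target and transcriptional repressor of arterial cells, had 213 and 153 CPM in sorted cells, against 11.5 and 8.62 CPM in whole embryos. It was 18.2-fold higher, and is also a gene of the Notch pathway outside vessels. The Notch ligand gene dll4 had 63.5 and 61.5 CPM in sorted cells, against 14.2 and 10.1 CPM in whole embryos. Among venous genes, stab2, which encodes a scavenger receptor for hyaluronan, had 36.1 and 53.4 CPM in sorted cells, against 7.0 and 4.67 CPM in whole embryos. The VEGFC receptor gene FLT4 had 36.3 and 47.3 CPM in sorted cells, against 5.72 and 6.48 CPM in whole embryos, so that the sorted samples again lay above both embryos. Without A_2 only 6 arterial genes were called higher, while the count of venous and lymphatic genes remained 11.

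Cartilage genes took the largest share of the reads of sorted cells among the 36 lists. Of 35 genes tested, 29 were higher and 1 was lower, with a median log2 fold change of 2.86. Together they held 7.71% and 6.14% of the reads on genes in sorted cells, against 0.788% and 0.58% in whole embryos. In sorted run 1, from the same pool of larvae, they held 2.98% and 4.77%, also above both embryos. One gene of type II collagen, COL2A1 (ENSDARG00000069093), had 27950 and 22150 CPM in sorted cells, against 2260 and 1581 CPM in whole embryos. It was 13.1-fold higher, and its second copy, COL2A1 (ENSDARG00000011407), was 9.45-fold higher. The files pair these symbols with more than 1 Ensembl gene, and reads common to both copies were not counted.

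Other matrix genes of chondrocytes were higher too. MATN1, encoding the cartilage matrix protein matrilin, had 8278 and 7937 CPM in sorted cells, against 609 and 623 CPM in whole embryos. It was 13.2-fold higher (log2 fold change 3.72 ± 0.47 (SE), adjusted p = 4.08e-05, quasi-likelihood test of edgeR, Benjamini-Hochberg adjusted). COL9A2, a type IX collagen chain, had 4482 and 3446 CPM in sorted cells, against 388 and 401 CPM in whole embryos. The link protein gene hapln1a had 1805 and 1451 CPM in sorted cells, against 162 and 132 CPM in whole embryos, and the aggrecan gene acana had 275 and 239 CPM in sorted cells, against 22.8 and 12.3 CPM in whole embryos. All 3 genes were without overlap between groups and 10.1-fold higher, 11.1-fold higher and 14.6-fold higher. The chondrocyte master regulator SOX9 is present as 2 genes, of which ENSDARG00000003293 had 592 and 746 CPM in sorted cells, against 27.9 and 25.4 CPM in whole embryos (25.1-fold higher), and ENSDARG00000043923 had 49.5 and 57.1 CPM in sorted cells, against 28 and 23.6 CPM in whole embryos (2.07-fold higher). The call of ENSDARG00000043923 was lost without A_2, without Q_2 and without Q_unsorted. The only cartilage list member called lower was MATN3 (ENSDARG00000069245), with 40.5 and 23.4 CPM in sorted cells, against 161 and 158 CPM in whole embryos.

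Genes of bone-forming cells were higher too. Of 15 tested, 12 were higher and 1 lower, with a median log2 fold change of 1.55. The lower one was MEF2C (ENSDARG00000029764), a factor of muscle, crest and bone cells, whose call was lost without A_2. The osteoblast regulator gene runx2b had 64.8 and 70.4 CPM in sorted cells, against 3.59 and 1.86 CPM in whole embryos. The sorted values were close to each other and the gene was 24.8-fold higher. SP7, which encodes osterix and acts later in osteoblasts, had 4.57 and 4.93 CPM in sorted cells, against 0.784 and 1.07 CPM in whole embryos. IFITM5, a membrane protein gene of osteoblasts, had 121 and 180.1 CPM in sorted cells, against 27.7 and 41.9 CPM in whole embryos. Both were without overlap between groups, 5.1-fold higher and 4.32-fold higher. Without A_2 the count of higher bone genes was 8.

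**Figure D2:**
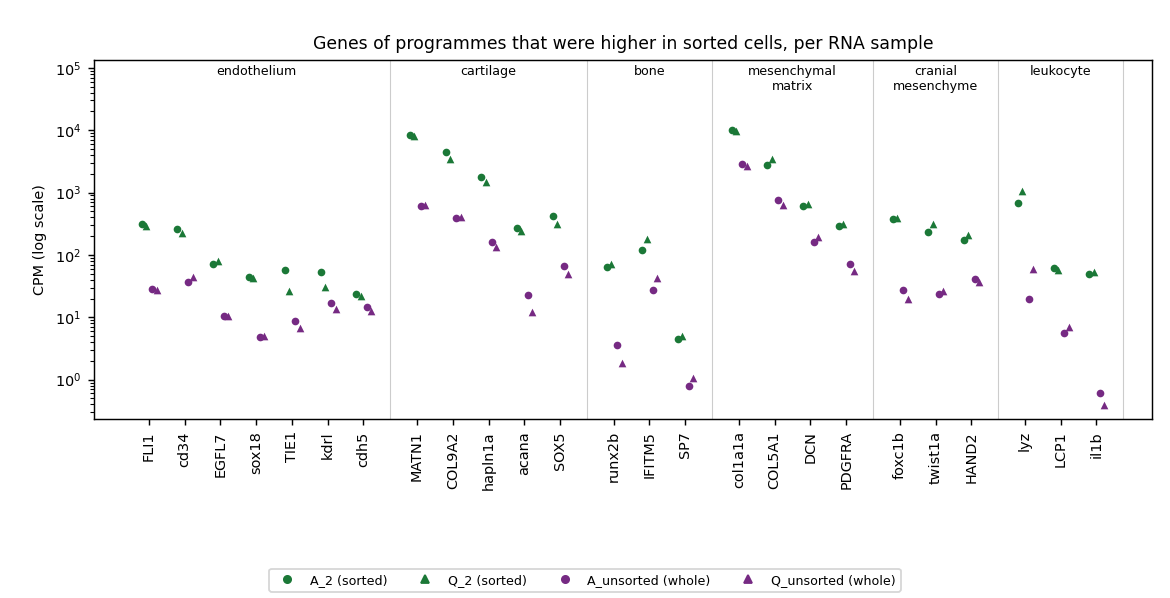
CPM on a log axis for genes of 6 lists in each RNA sample, with sorted cells in green (A_2 circle, Q_2 triangle) and whole embryos in purple (A_unsorted circle, Q_unsorted triangle). For every gene shown both sorted samples lie above both embryos; the gap is narrowest for cdh5 (24 and 22.1 CPM in sorted cells, against 14.6 and 12.4 CPM in whole embryos).

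Connective tissue genes formed another large group. In the mesenchymal matrix list 36 of 45 tested genes were higher and none was lower in edgeR's test (also 0 at an unadjusted p under 0.05 and in DESeq2), with a median log2 fold change of 1.85. They held 4.05% and 3.73% of the reads on genes in sorted cells, against 1.13% and 1.01% in whole embryos, and 1.48% and 3.36% in sorted run 1. The type I collagen gene col1a1a had 10130 and 9748 CPM in sorted cells, against 2828 and 2674 CPM in whole embryos. It was 3.61-fold higher (adjusted p = 0.00442, edgeR's quasi-likelihood test), a call lost without A_2. The growth factor receptor gene PDGFRA, which marks mesenchymal precursors and fibroblasts, had 292 and 309.9 CPM in sorted cells, against 70.5 and 55 CPM in whole embryos. The small proteoglycan gene DCN (decorin) had 617 and 664 CPM in sorted cells, against 161 and 193 CPM in whole embryos. Both were without overlap and 4.8-fold higher and 3.61-fold higher. SERPINH1 (ENSDARG00000019949), the chaperone of collagen folding, was 23.2-fold higher, with 2150 and 2648 CPM in sorted cells, against 98.3 and 109 CPM in whole embryos; it is also induced by heat shock in other systems.

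Transcription factors that pattern the face and arches were higher as well. Of 45 genes in that list, all tested, 36 were higher and 2 lower, with a median log2 fold change of 2.09. The forkhead gene foxc1b, a regulator of arch cartilage and vessels, had 384 and 386 CPM in sorted cells, against 27.3 and 19.9 CPM in whole embryos, and was 16.3-fold higher. The mesenchymal gene twist1a had 237 and 313 CPM in sorted cells, against 23.7 and 26.8 CPM in whole embryos. HAND2, which patterns the lower jaw and is also a heart gene, had 174 and 210.3 CPM in sorted cells, against 40.8 and 36.8 CPM in whole embryos. In these genes the sorted samples lay above the embryos with both kits, 10.9-fold higher for twist1a and 4.96-fold higher for HAND2. The 2 lower members were MEF2C (ENSDARG00000029764), which was 2.11-fold lower, and TFAP2B. TFAP2B, an AP-2 factor of neural crest and epidermis, was 2.97-fold lower, with 7.69 and 7.57 CPM in sorted cells, against 29.4 and 16 CPM in whole embryos. Both of these calls were lost without A_2. In the short list of neural crest stem genes, 4 of 9 tested were higher and none lower in edgeR's test (also 0 at an unadjusted p under 0.05 and in DESeq2), and 2 were higher without A_2 and 2 without Q_2. The median log2 fold change of this short list was 0.011 and 5 members were not called, so no direction was read for the list as a whole. SOX10, needed for pigment cell and glial fates of the crest, was among the 4 higher members. It had 99.8 and 83.2 CPM in sorted cells, against 24.6 and 24.7 CPM in whole embryos.

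The hox genes, which record position along the body axis, were counted by paralog group. Among groups 2 to 4, expressed from the hindbrain and posterior arches backwards, 4 of 9 tested genes were higher and 1 lower, and without A_2 it was 2 higher and the lower call was lost. Among groups 5 to 11, which mark the trunk, 1 of 26 was higher and 14 were lower. Among the group 13 genes, active in tail and fin, 3 of 5 were higher; groups were compared by these counts only, with no test between them. The arch gene hoxa2b had 35.3 and 58.4 CPM in sorted cells, against 10.7 and 8.0 CPM in whole embryos, and HOXB13 had 13.6 and 22.4 CPM in sorted cells, against 6.67 and 4.62 CPM in whole embryos. HOXB7, a trunk gene, had 2.73 and 2.85 CPM in sorted cells, against 11 and 8.9 CPM in whole embryos. The first 2 genes were 5.01-fold higher and 3.18-fold higher and HOXB7 was 3.56-fold lower. The trunk pattern depended on which sorted samples were used, and run 1 also differed from run 2 in sequencing run and amplification. Without A_2 only 3 of the 26 genes were lower, and with sorted run 1 in place of run 2 it was 1 lower and 1 higher, against the same whole embryos. In group 13, 3 genes were higher under both alternatives. Over all hox genes the counts were 8 higher and 15 lower of 47. These shares of 17.0% and 31.9% were near the 23.5% and 28.2% over all genes. The hox counts changed with the samples used. They fell to 5 and 3 without A_2, and the higher count fell to 5 without Q_unsorted.

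**Figure D3:**
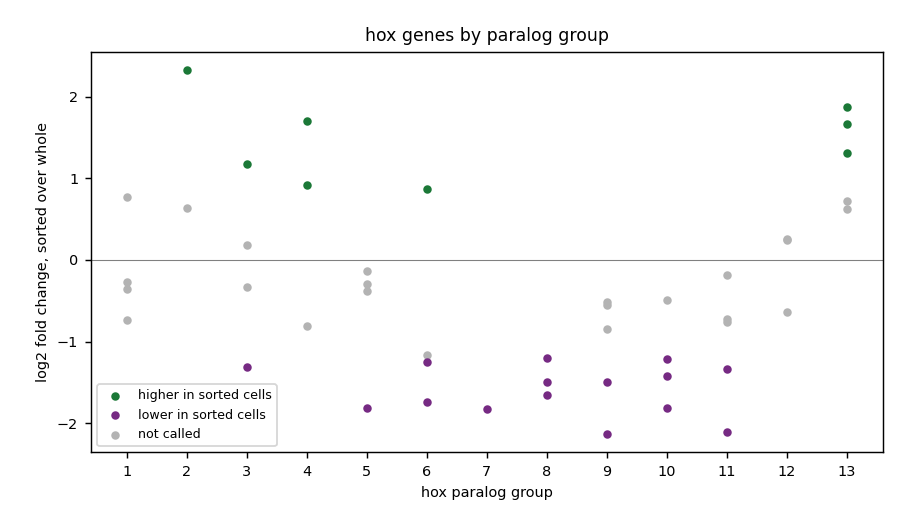
Log2 fold change of sorted run 2 cells over whole embryos (vertical axis) for the 47 tested hox genes, by paralog group 1 to 13 (horizontal axis). Green points were higher in sorted cells, purple points lower and grey points not called, so that higher calls lie in groups 2 to 4, 6 and 13 and lower calls in groups 3 and 5 to 11.

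Developmental signalling genes were often higher in sorted cells, with 72.1% of those tested higher and 5.88% lower, against 23.5% and 28.2% over all genes. Of 68 tested members of the BMP, Wnt, Notch and TGF-beta list, which also holds hedgehog and FGF genes, 49 were higher and 4 lower, with a median log2 fold change of 1.86. Among ligands, TGFB2, made by many mesenchymal cells, had 16.9 and 14.6 CPM in sorted cells, against 0.729 and 1.01 CPM in whole embryos. GDF5, a BMP family ligand of joints, had 49.3 and 25.5 CPM in sorted cells, against 1.46 and 2.2 CPM in whole embryos, and WNT5B, a non-canonical Wnt ligand, was 10.7-fold higher. These ligand genes were without overlap, 18-fold higher for TGFB2 and 20.4-fold higher for GDF5. Among receptors, PTCH1, the hedgehog receptor and a target of the pathway, had 66.2 and 23.4 CPM in sorted cells, against 4.76 and 4.06 CPM in whole embryos. FGFR3, a receptor of growing cartilage, had 573 and 490.3 CPM in sorted cells, against 69.7 and 55.6 CPM in whole embryos. Both receptor genes were higher in sorted cells, while all 4 lower members were ligand genes: SHH (ENSDARG00000038867) was 7.75-fold lower, SHH (ENSDARG00000068567) was 4.53-fold lower, and FGF8 was 5.93-fold lower and 4.0-fold lower for its 2 genes. Without A_2 and without Q_unsorted 2 members were lower, and neither FGF8 gene was called.

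Many genes of the leukocyte and thrombocyte lists were also higher in sorted cells. Of 35 leukocyte genes tested, 20 were higher and 3 lower (ctsl.1, MFAP4 and MPEG1). The member with the most reads in sorted cells was CEBPB, which also stands in the immediate early list below. It held 37.8% of the reads of the leukocyte list there, with 1178 and 1206 CPM in sorted cells, against 70 and 69.5 CPM in whole embryos. The lysozyme gene lyz of neutrophils and macrophages had 674 and 1058 CPM in sorted cells, against 20.01 and 58.7 CPM in whole embryos. LCP1, encoding the leukocyte actin bundler plastin, had 61.4 and 56.7 CPM in sorted cells, against 5.55 and 6.87 CPM in whole embryos. The cytokine gene il1b, which injury and stress also induce, had 49.8 and 53.2 CPM in sorted cells, against 0.616 and 0.394 CPM in whole embryos. The 3 genes did not overlap between groups and were 22-fold higher, 9.5-fold higher and 101-fold higher. The macrophage gene MPEG1 (ENSDARG00000043093) went the other way, with 8.61 and 4.54 CPM in sorted cells, against 19.6 and 12.2 CPM in whole embryos, a call lost without Q_2 and without A_unsorted. Of 10 thrombocyte genes 8 were higher and none lower in edgeR's test (1 at an unadjusted p under 0.05 and 0 in DESeq2). One gene, THBS1 (ENSDARG00000010785), held 80.3% of the reads of this list in sorted cells. The members not called were gp9 and f5. The groups overlapped for gp9, with 1.61 and 2.49 CPM in sorted cells, against 2.52 and 1.465 CPM in whole embryos, and f5 was 1.83-fold lower. The platelet integrin gene itga2b had 2.07 and 1.68 CPM in sorted cells, against 0.168 and 0.0563 CPM in whole embryos. The thrombopoietin receptor gene mpl had 1.71 and 1.2 CPM in sorted cells, against 0 and 0 CPM in whole embryos, at least 8.63-fold higher when each embryo is set at 3 counts.

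Erythrocyte genes were mostly not called, with 11.8% of those tested higher and 17.6% lower, against 23.5% and 28.2% over all genes. Of 17 tested, 2 were higher, 3 were lower and 12 were not called, and without A_2 it was 1 higher and 1 lower. The 2 genes named SLC4A1, the anion exchanger of red cells, moved in opposite directions, 2.77-fold higher for ENSDARG00000012881 and 10.6-fold lower for ENSDARG00000024560, and both calls were lost without A_2. The alpha globin gene hbae3 had 1015 and 1831 CPM in sorted cells, against 1292 and 1402 CPM in whole embryos, with overlapping groups (adjusted p = 0.887, edgeR's quasi-likelihood test). The erythroid regulator gene gata1a had 9.49 and 10.04 CPM in sorted cells, against 2.58 and 3.55 CPM in whole embryos and was 3.19-fold higher, and another globin gene, hbae5, was 5.02-fold lower.

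Pigment, mural and fin cells border the crest and mesenchymal lineages, and among their lists only that of melanophores departed clearly from all genes. In the xanthophore and iridophore, smooth muscle and pericyte, and fin fold lists, the counts were near the shares over all genes (23.5% higher and 28.2% lower). These lists are short, and no direction for their cell types was read from the counts. Of 15 melanophore genes 13 were lower and none higher in edgeR's test (also 0 at an unadjusted p under 0.05 and in DESeq2). The melanosome gene pmela had 31.1 and 22.1 CPM in sorted cells, against 296 and 485 CPM in whole embryos, and TYR, the enzyme that starts melanin synthesis, was 11.3-fold lower. Among xanthophore and iridophore genes 3 were higher (both ALX4 genes and ltk) and 3 lower (PAICS, pnp4a and GPNMB) of 12, with PAICS and ltk no longer called without A_2. The purine enzyme gene pnp4a of iridophores had 3.06 and 4.3 CPM in sorted cells, against 74.5 and 67.5 CPM in whole embryos. With sorted run 1 in place of run 2 that count was 1 higher and 6 lower. In the smooth muscle and pericyte list 6 were higher and 4 lower of 17, with 2 lower without A_2 and 3 higher and 2 lower with sorted run 1 added. The contractile actin gene acta2 had 40.4 and 59.7 CPM in sorted cells, against 226 and 300.1 CPM in whole embryos, while the pericyte receptor gene PDGFRB had 68 and 38.1 CPM in sorted cells, against 7.84 and 11.8 CPM in whole embryos. Thus acta2 was 5.25-fold lower and PDGFRB was 5.39-fold higher. In the fin fold list 2 of 8 tested genes were higher and 3 lower. The actinodin gene and3, a protein of fin fibres, had 7.39 and 13.1 CPM in sorted cells, against 131 and 235 CPM in whole embryos.

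Cell cycle genes were higher in sorted cells. Of 41 tested, 32 were higher and 1 lower, with a median log2 fold change of 1.42. The proliferation marker gene mki67 had 229.5 and 128 CPM in sorted cells, against 33.7 and 43.2 CPM in whole embryos. TOP2A, the topoisomerase of dividing cells, had 227 and 109.5 CPM in sorted cells, against 32.3 and 28.6 CPM in whole embryos. For both genes A_2 was well above Q_2 and both were above the embryos, with TOP2A 5.52-fold higher. PCNA, the replication clamp, had 569 and 688 CPM in sorted cells, against 216 and 442 CPM in whole embryos and was not called (adjusted p = 0.0652, edgeR's quasi-likelihood test). The lower member was birc5b, a survivin-type gene, with 0.0657 and 0.0601 CPM in sorted cells, against 0.504 and 0.62 CPM in whole embryos, and DESeq2 did not call it, nor did edgeR without A_2, without Q_2 or without Q_unsorted. Without A_2 the count of higher cell cycle genes fell to 19.

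Immediate early genes, which cells switch on within minutes of disturbance, showed the highest median difference of all lists. Of 42 tested, 41 were higher and none was lower in edgeR's test (also 0 at an unadjusted p under 0.05 and in DESeq2), with a median log2 fold change of 4.07. They held 3.05% and 3% of the reads on genes in sorted cells, against 0.142% and 0.117% in whole embryos. In sorted run 1 they held 2.33% and 2.97%. The AP-1 subunit gene FOS had 1891 and 2131 CPM in sorted cells, against 1.96 and 2.25 CPM in whole embryos. The embryo values were near 2.11 CPM on average, and the difference was 952-fold (log2 fold change 9.89 ± 0.55 (SE), adjusted p = 1.62e-07, quasi-likelihood test of edgeR, Benjamini-Hochberg adjusted). Its partner gene JUN had 3617 and 4370 CPM in sorted cells, against 112 and 121 CPM in whole embryos. The zinc finger gene egr1 had 1789 and 1556 CPM in sorted cells, against 32.8 and 28.7 CPM in whole embryos. The stress-induced factor gene ATF3 had 450 and 284 CPM in sorted cells, against 7.84 and 4.06 CPM in whole embryos. In the 3 genes the sorted samples lay far above the embryos, 34.3-fold higher for JUN, 54.4-fold higher for egr1 and 61.6-fold higher for ATF3.

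Many genes of the heat shock list, which holds inducible and constitutive chaperone genes, were higher as well. Of 23 tested, 15 were higher (65.2%, against 23.5% over all genes) and 2 lower (8.7%, against 28.2%). They held 3.54% and 2.84% of the reads on genes in sorted cells, against 0.588% and 0.669% in whole embryos. The inducible chaperone gene hsp70l had 10230 and 7334 CPM in sorted cells, against 9.69 and 5.92 CPM in whole embryos, and was 1124-fold higher (log2 fold change 10.13 ± 0.67 (SE)). The hsp70 genes are near-identical copies of each other, and how reads split between them is uncertain. HSP90AA1, an inducible chaperone gene, had 4398 and 3090 CPM in sorted cells, against 70.8 and 124 CPM in whole embryos. The constitutive gene HSPA8 (ENSDARG00000068992) had 3886 and 5039 CPM in sorted cells, against 2818 and 3951 CPM in whole embryos and was not called. The mitochondrial chaperone gene HSPE1 was 2.35-fold lower and hsp90aa1.1, used by muscle in zebrafish, was 2.24-fold lower. Both of these lower calls were lost without A_2 and with sorted run 1 added, and that of hsp90aa1.1 also without Q_2. The stress genes and the tissue genes above were higher in the same sorted samples, and the part of dissociation stress in those lists was not tested.

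**Figure D4:**
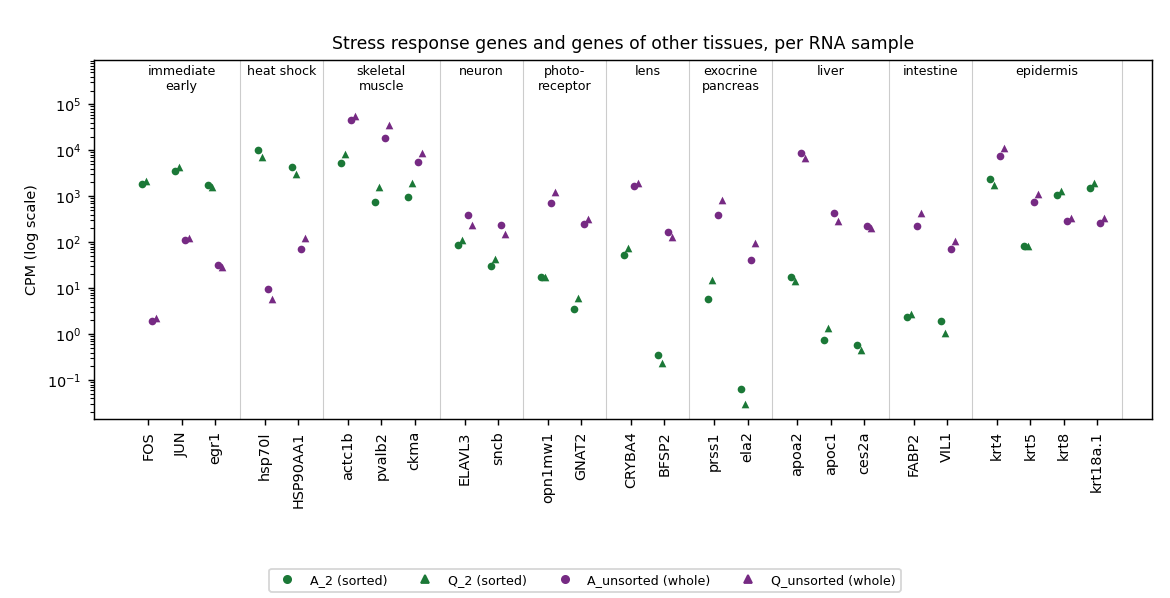
CPM on a log axis for stress genes and for genes of tissues that were mostly lower, in each RNA sample, with sorted cells in green (A_2 circle, Q_2 triangle) and whole embryos in purple (A_unsorted circle, Q_unsorted triangle). The 3 immediate early and 2 heat shock genes lie above the embryos in both sorted samples, the genes of muscle, neurons, eye, pancreas, liver and gut lie below them, and the keratin genes krt8 and krt18a.1 lie above while krt4 and krt5 lie below.

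Skeletal muscle genes were lower in sorted cells but far from absent. Of 49 tested, 46 were lower and none higher in edgeR's test (also 0 at an unadjusted p under 0.05 and in DESeq2), with a median log2 fold change of -2.54. They held 1.83% and 2.69% of the reads on genes in sorted cells, against 15.2% and 19.1% in whole embryos, and 3.09% and 3.5% in sorted run 1. The muscle actin gene actc1b had 5429 and 8344 CPM in sorted cells, against 45650 and 56670 CPM in whole embryos. The parvalbumin gene pvalb2, a calcium buffer of fast fibres, had 766 and 1595 CPM in sorted cells, against 18410 and 35700 CPM in whole embryos. The muscle creatine kinase gene ckma had 979.5 and 1915 CPM in sorted cells, against 5509 and 8972 CPM in whole embryos. No gene of the 3 overlapped between groups, and they were 7.43-fold lower, 22.9-fold lower and 5.0-fold lower. Q_2 was above A_2 in each, and without A_2 only 24 muscle genes were called lower, with actc1b and ckma no longer called.

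Heart muscle genes were mostly lower. Of 18 tested, 14 were lower and 3 higher. The contractile gene MYL7, cardiac myosin light chain, had 0.263 and 0.15 CPM in sorted cells, against 43.5 and 52.5 CPM in whole embryos, and was 229-fold lower. The natriuretic peptide gene nppa had 0 and 0 CPM in sorted cells, against 6.5 and 4.34 CPM in whole embryos, at least 57.4-fold lower when each sorted sample is set at 3 counts. The 3 higher members were the transcription factor genes HAND2, TBX5 and TBX20, which act outside heart muscle as well. TBX5, also a gene of the pectoral fin bud, had 24.5 and 34 CPM in sorted cells, against 3.75 and 3.38 CPM in whole embryos, and TBX20 was 3.34-fold higher.

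Neural and eye genes were mostly lower. Of 50 neuronal genes tested 43 were lower and none higher in edgeR's test (also 0 at an unadjusted p under 0.05 and in DESeq2). The RNA-binding protein gene ELAVL3 of neurons had 85.5 and 114 CPM in sorted cells, against 384 and 242 CPM in whole embryos, a call lost without A_2. SNAP25, a protein of synaptic vesicle release, is present as 2 genes, of which ENSDARG00000020609 had 33.1 and 33.4 CPM in sorted cells, against 352 and 246 CPM in whole embryos, and ENSDARG00000058117 was 5.92-fold lower. Among 21 glial genes 17 were lower and 2 higher. The astroglial filament gene GFAP had 14.1 and 13 CPM in sorted cells, against 145 and 174 CPM in whole embryos, and the myelin gene mbpa had 6.14 and 9.32 CPM in sorted cells, against 78.8 and 101 CPM in whole embryos. They were 11.8-fold lower and 11.6-fold lower. The 2 higher members were the Notch target gene her4.2, which was 5.29-fold higher, and the glutamate transporter gene SLC1A3 (ENSDARG00000104431), which was 2.9-fold higher.

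In the eye, 40 of 44 photoreceptor genes and 26 of 28 lens genes were lower and none was higher in edgeR's test. The count of higher genes was also 0 for photoreceptors at an unadjusted p under 0.05 and in DESeq2, and for the lens it was 1 at an unadjusted p under 0.05 and 0 in DESeq2. The green cone opsin gene opn1mw1 had 17.4 and 17.4 CPM in sorted cells, against 722 and 1258 CPM in whole embryos. GNAT2, the transducin subunit of cones, had 3.61 and 6.28 CPM in sorted cells, against 248 and 328 CPM in whole embryos. Both were without overlap, 56.8-fold lower and 58.2-fold lower. The lens filament gene BFSP2 had 0.361 and 0.24 CPM in sorted cells, against 167 and 132 CPM in whole embryos, and was 492-fold lower. Of 44 tested crystallin genes, by symbol, 42 were lower. Crystallin genes occur in tandem arrays of near-identical copies, so the value of a single crystallin gene is uncertain.

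Liver, exocrine pancreas and intestine had the lowest medians of the 36 lists. Of 48 liver genes tested 47 were lower and none higher in edgeR's test (also 0 at an unadjusted p under 0.05 and in DESeq2), with a median log2 fold change of -6.38. They held 0.102% and 0.113% of the reads on genes in sorted cells, against 2.67% and 1.73% in whole embryos, and 0.158% and 0.107% in sorted run 1. The apolipoprotein gene apoa2 had 17.8 and 14.7 CPM in sorted cells, against 8835 and 6813 CPM in whole embryos. The apolipoprotein B gene apobb.1, of yolk lipoprotein export and liver, had 0.329 and 0.18 CPM in sorted cells, against 1472 and 407 CPM in whole embryos. These genes were 481-fold lower and 3652-fold lower, far beyond the spread within either group. The liver fatty acid carrier gene fabp10a had 1.97 and 1.86 CPM in sorted cells, against 52 and 145 CPM in whole embryos, with the 2 embryos well apart.

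Pancreas and gut genes were lower too. In the exocrine pancreas list 24 of 26 tested genes were lower and 1 was higher, a call lost without A_2. The trypsin gene prss1 had 5.85 and 14.9 CPM in sorted cells, against 385 and 825 CPM in whole embryos, and was 58.2-fold lower. The chymotrypsin gene ctrb.2 had 0 and 0 CPM in sorted cells, against 34.5 and 50.3 CPM in whole embryos, at least 449.5-fold lower when each sorted sample is set at 3 counts. The elastase gene ela2 had 0.0657 and 0.0301 CPM in sorted cells, against 41.5 and 95.2 CPM in whole embryos. Among endocrine genes 18 of 21 were lower and none higher in edgeR's test (also 0 at an unadjusted p under 0.05 and in DESeq2). The glucagon gene GCG was 20.1-fold lower, while the insulin gene ins, with 0.0328 and 4.0 CPM in sorted cells, against 4.04 and 7.94 CPM in whole embryos, was not called. Of 36 intestinal genes 30 were lower and 2 higher. The fatty acid binding protein gene FABP2 of enterocytes had 2.37 and 2.77 CPM in sorted cells, against 232 and 429.7 CPM in whole embryos, and VIL1, villin of the brush border, was 58.8-fold lower. The 2 higher members were an aminopeptidase gene, ANPEP (ENSDARG00000036809), which was 3.19-fold higher, and the endocytic adaptor gene DAB2 (ENSDARG00000053091), also in the endothelial list, which was 3.0-fold higher. Kidney genes were lower for 66.7% of those tested and higher for 4.17%, against 28.2% and 23.5% over all genes. In the kidney list 16 of 24 tested genes were lower and 1 was higher, the phosphate transporter gene SLC20A1 (ENSDARG00000010641), whose call was lost without any 1 of the 4 samples (log2 fold changes of 0.56 to 1.00).

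Surface epithelia were lower with a set of exceptions. Of 39 epidermal genes tested 34 were lower and 3 higher. The keratin gene krt4 of the outer layer had 2419 and 1766 CPM in sorted cells, against 7657 and 11090 CPM in whole embryos, a call lost without A_2 and without Q_2. The basal keratin gene krt5 had 84.6 and 81.2 CPM in sorted cells, against 749.6 and 1148 CPM in whole embryos. The adhesion genes cdh1, E-cadherin, and epcam were 5.39-fold lower and 2.41-fold lower, the call of epcam being lost without A_2 and without Q_2. The 3 exceptions were keratin genes. The simple epithelial keratin genes krt8, with 1091 and 1285 CPM in sorted cells, against 287 and 331 CPM in whole embryos, and krt18a.1, with 1524 and 1920 CPM in sorted cells, against 262 and 339.6 CPM in whole embryos, were 3.85-fold higher and 5.72-fold higher. The third, krt94, was 2.3-fold higher. In mammals keratins 8 and 18 form filaments together.

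Of 12 ionocyte genes tested 10 were lower and none higher in edgeR's test (also 0 at an unadjusted p under 0.05 and in DESeq2). The calcium channel gene TRPV6 of skin ionocytes had 0 and 0.12 CPM in sorted cells, against 11.5 and 12.8 CPM in whole embryos. In the hair cell list 10 of 19 tested genes were lower (52.6%, against 28.2% over all genes) and 1 higher (5.26%, against 23.5%), the stereocilin gene strc. DESeq2 called none higher, the call of strc was lost without A_2, without Q_2 and without A_unsorted, and 6 genes were lower without A_2. In the notochord and hatching gland list 6 of 12 were lower (50.0%, against 28.2% over all genes) and 2 higher (16.7%, against 23.5%). The higher ones were ntd5 and the collagen gene col8a1a, and the count of higher genes changed without Q_unsorted.

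**Figure D5:**
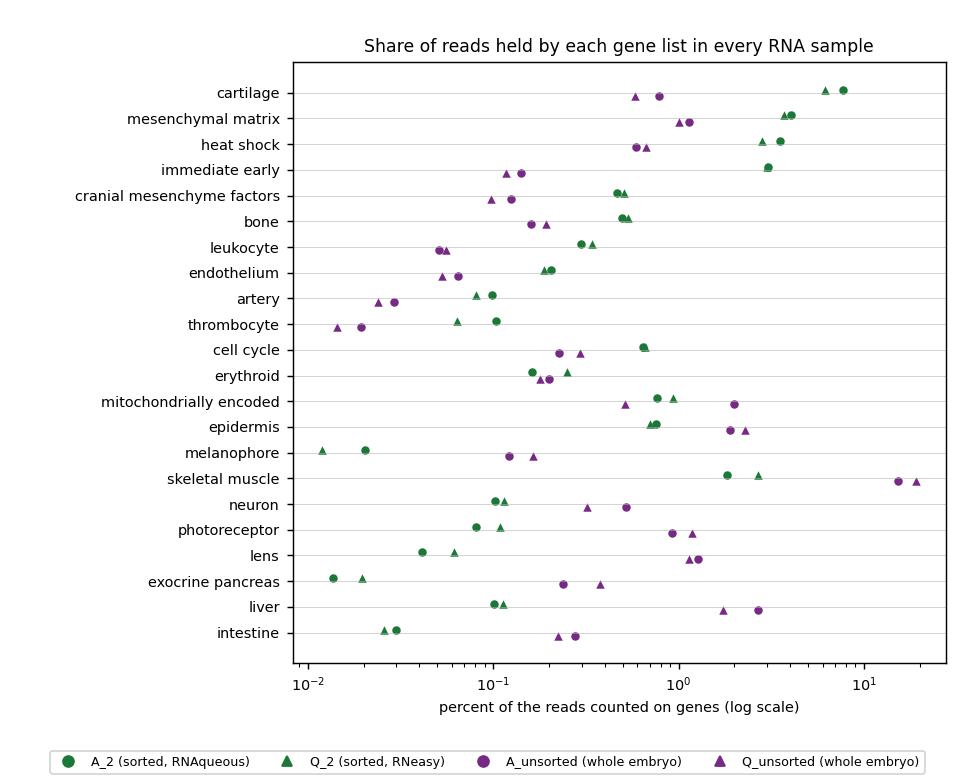
Share of the reads counted on genes (percent, log axis) held by each of 22 gene lists in the RNA samples, with sorted cells in green (A_2 circle, Q_2 triangle) and whole embryos in purple (A_unsorted circle, Q_unsorted triangle). Cartilage genes hold 7.71% and 6.14% in sorted cells against 0.788% and 0.58% in embryos, and skeletal muscle genes 1.83% and 2.69% against 15.2% and 19.1%.

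Of 18 tested genes often used as references, 1 was higher (5.56%, against 23.5% over all genes), 5 were lower (27.8%, against 28.2%) and 12 were not called. GAPDH, a glycolytic enzyme gene, had 280.3 and 400 CPM in sorted cells, against 1899 and 3304 CPM in whole embryos, and was 7.65-fold lower. The actin gene actb2 had 8480 and 9876 CPM in sorted cells, against 5224 and 6395 CPM in whole embryos and was not called. The ubiquitin gene ubc was the higher one, 1.97-fold higher, a call lost without any 1 of the 4 samples, and the other lower ones were GAPDHS, SDHA, TUBA1A and HPRT1. Without A_2 only 2 reference genes were lower, and without Q_2 it was 3. Transcripts of the mitochondrial genome held 0.763% and 0.936% of the reads on genes in sorted cells, against 1.99% and 0.516% in whole embryos. The embryos differed from each other on both sides of the sorted samples, 1 of 13 genes, MT-ND3, was called lower and none higher in edgeR's test (also 0 at an unadjusted p under 0.05 and in DESeq2), and without Q_unsorted 10 were called lower. The call of MT-ND3 was lost without A_2 and without A_unsorted. With sorted run 1 in place of run 2, 3 of the 13 mitochondrial genes were higher and 0 lower. The median log2 fold change was then 1.085, against -0.95 with run 2. Genes taken by ribosomal protein symbols also changed with the run. With sorted run 1 in place of run 2, 12 of 90 tested were higher and 1 lower, with a median log2 fold change of 1.07. With run 2, 1 of 91 was higher and 1 lower, with a median log2 fold change of -0.08. The higher one, rps6kal, is a kinase gene that the symbol search took in, and its call was lost without A_2, without Q_2 and without Q_unsorted. Without Q_unsorted 2 of the 91 genes were higher and 4 lower.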

How the data were processed

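Libraries were made from polyA RNA with SMART-seq v4 and Nextera XT. The authors deposited gene counts per library from STAR with GRCz10 (STAR 2 in the submitters' processing notes), and the column that ignores strand was used, so overlapping and antisense genes cannot be told apart. Reads that mapped to several places were not counted on genes. The lines that name no gene were left out; in the 6 libraries used they held 7.31% to 9.75% of reads as unmapped, 6.32% to 11.1% as multimapping, 5.64% to 11.0% as outside genes and 2.88% to 3.24% as ambiguous.

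Technical libraries were summed per RNA, and 4 RNA samples entered edgeR 4.0.16 (R 4.3.3): low-count filter of filterByExpr, TMM factors, quasi-likelihood F test, Benjamini-Hochberg adjustment over 21377 genes with a threshold of 0.05, no covariate. The script was tested on simulated data. Samples can be paired across the groups only by kit, and each group has 2 samples. The paper sequenced the libraries of both groups in the same run. The labels of 1 RNeasy sorted sample conflict (its title gives number 2, its source name number 1), and it was taken as run 1. CPM are not per length and were not compared between genes. Names came from a table of Ensembl IDs and symbols, which named 27000 of 35117 genes. Of 952 listed symbols 901 matched, and RefSeq synonyms were used for older names. Some genes stand in more than 1 list.

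The members and lists were chosen with earlier results of these data known. The naming rule took a fixed set of marker genes, the 4 members of each list with the highest mean CPM, and, among genes with a symbol of their own, the 20 largest called changes in each direction by fold (mean CPM at least 10) and by CPM difference. Other genes were named as examples after their values were seen. A few genes are not reported here by name, and stay in the counts of their lists. Alternatives were DESeq2 1.42.0, other scalings, filters, libraries, strand columns and sorted run 1, and each sample was left out in turn. Figures were drawn with matplotlib 3.10.9.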

Additional observations from a re-analysis of the deposited data

Results flagged for a closer look

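For 13 of the genes taken by the naming rule, the sorted sample lay above the embryo with 1 kit and below it with the other. With 1 sample of each kind per kit this difference between kits was not tested, and no search for single deviating samples was possible with 2 samples a group. The log2 ratio of sorted cells to whole embryo is given with RNAqueous first and RNeasy after it.

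Among mitochondrial transcripts it was -1.14 and 1.18 for MT-CO1, -1.21 and 0.46 for MT-CO2, and -0.98 and 0.86 for MT-CO3. It was -1.87 and 0.33 for MT-CYB and -2.09 and 0.38 for MT-ND1. Among genes of other lists it was -0.35 and 0.39 for the globin gene hbae3, 0.57 and -0.30 for the macrophage gene MPEG1 (ENSDARG00000055290), 0.46 and -0.59 for the pteridine synthesis gene gch2, and 0.05 and -0.45 for the fin fibre gene and1. It was 0.52 and -0.35 for the aquaporin gene AQP8, 0.18 and -0.49 for the myosin gene MYO6 (ENSDARG00000044016), -1.07 and 0.07 for PAX6 (ENSDARG00000103379), and 0.26 and -0.15 for the ribosomal protein gene RPLP0.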

How the results depend on the processing

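The count of 11045 called genes stayed within 1.5 times under 19 of 20 alternatives, from 8037 with sorted run 1 added to 12612 with the technical libraries entered separately; the exception was the fit without A_2. With each sample left out in turn, calls ranged from 5572 (without A_2) to 10465, genes higher in sorted cells from 2205 to 4631 and genes lower from 3367 to 5912. With sorted run 1 added, 3057 genes were higher. The cause was not tested. Upper quartile scaling moved the median log2 fold change of all genes to -0.15, and the calls were then 4355 higher and 6546 lower. DESeq2 called 10607 genes, 4841 higher and 5766 lower. Of the 196 called genes of the naming rule that could be reported, 195 kept their call in DESeq2, 180 with sorted run 1 in place of run 2 and 158 without A_2. The samples can be paired across the groups only by kit. The kit differences of sorted cells and whole embryos correlated at Pearson 0.18 and Spearman 0.24 over 21377 genes, which are not independent replicates. A replicate block for the kit gave 11717 calls, 5521 higher and 6196 lower, including all 196 of the called genes of the naming rule. Below about 3 counts (0.0943 CPM in sorted cells) the depth shows no difference.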

Other observations

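Gene families defined by symbol were counted in the same samples. They share members with the tissue lists, among them COL2A1 (ENSDARG00000069093) and MMP2, so these counts are not separate from those above. Collagens were higher for 32 of 55 tested genes (58.2%) and lower for 10 (18.2%). Integrins, the receptors of that matrix, were higher for 19 of 34 (55.9%) and lower for 9 (26.5%). Over all genes these shares were 23.5% and 28.2%. The fibronectin receptor subunit gene ITGA5 had 178 and 111 CPM in sorted cells, against 18.6 and 15.4 CPM in whole embryos, and was 8.5-fold higher. Without A_2 the integrin counts were 12 higher and 5 lower, and without Q_2 3 were lower. Matrix metalloproteinase and ADAMTS genes were higher for 23 of 38 and lower for 4, against 15 and 2 without A_2, and 2 were lower without Q_unsorted. The collagenase gene mmp13a, which injury also induces, had 109 and 123 CPM in sorted cells, against 1.34 and 3.6 CPM in whole embryos. Its sorted values lay far above both embryos.

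Claudins, solute carriers and cytochrome P450 genes, taken by symbol, were lower more often (74.3%, 43.0% and 56.5%) than the 28.2% over all genes. Of 35 tested claudins 26 were lower and 3 higher, with 17 lower without A_2. The intestinal claudin gene cldn15la had 4.21 and 4.6 CPM in sorted cells, against 69.3 and 146 CPM in whole embryos, while CLDN11 (ENSDARG00000020031) had 101 and 177 CPM in sorted cells, against 27.4 and 20.8 CPM in whole embryos. These claudin genes were 24.4-fold lower and 5.76-fold higher. Solute carriers were lower for 174 of 405 tested genes and higher for 67, against 111 and 31 without A_2. Cytochrome P450 genes were lower for 39 of 69 and higher for 6, with 24 lower without A_2.

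Among cadherins and protocadherins 22 of 69 were lower (31.9%, against 28.2% over all genes) and 13 higher (18.8%, against 23.5%). With sorted run 1 in place of run 2, 30 of 62 tested were lower and 7 higher. The median log2 fold change was then -1.34, against -0.605 with run 2. CDH11, the cadherin gene of mesenchyme, had 964 and 709 CPM in sorted cells, against 159.9 and 102 CPM in whole embryos, and was 6.38-fold higher. The cadherin counts fell to 9 lower and 6 higher without A_2, 12 lower without Q_2 and 14 lower without A_unsorted.

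Nuclear genes of respiratory complex I were lower for 40 of 48 tested genes (83.3%, against 28.2% over all genes). None of them was higher in edgeR's test (also 0 at an unadjusted p under 0.05 and in DESeq2), with a median log2 fold change of -1.26. They held 0.327% and 0.465% of the reads on genes in sorted cells, against 0.788% and 0.983% in whole embryos. This count was 4 without A_2, 25 without Q_unsorted and 2 lower against 2 higher with sorted run 1 in place of run 2, whose samples held 1.23% and 0.594% of reads in these genes.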
